A study of Homo sapiens with 6 samples.

Results

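The TNF superfamily ligands and receptors were taken as every probe set that the platform annotation gave exactly 1 gene symbol, where that symbol starts with TNFSF or TNFRSF or is TNF, LTA, LTB, LTBR, CD40, CD70 or FASLG. The rule used names only. It found 78 probe sets of 37 genes, 15 ligands and 22 receptors, among 44988 probe sets of 18132 genes with 1 symbol. The cells were HMEC-1, an established human line from the endothelium of small dermal vessels, immortalised with a viral oncoprotein and kept without serum. In 3 samples the cells had received EPC-Exos at 1e+11 particles per mL for 24 hours, and in 3 samples an equal volume of PBS for the same time. The labels give the abbreviation alone; it is understood to stand for exosomes of endothelial progenitor cells. Whether each array had its own culture is not stated, and p-values therefore cover array-to-array spread alone, possibly technical. No batch is labelled, so batch and group cannot be told apart.

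Ligands of the TNF superfamily are made mostly as trimers anchored in the membrane, and many are cut off and act at a distance. Receptors with a death domain, such as those for TNF, FASLG and TNFSF10 (TRAIL), can start apoptosis or necroptosis, whereas the others recruit TRAF adaptors and switch on NF-kB and MAP kinases. Decoy receptors bind a ligand without passing on a full signal. In endothelium the family is known for leukocyte adhesion, for costimulation of T cells and for the balance of survival and death.

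Promoters are shown for TNFSF9, TNFRSF14, TNFRSF19 and TNFRSF21, which are called members with an entry in the RefSeq promoter table. Those of the other called members are not shown, which does not mean that they lack an entry. The promoters shown cover the 250 bases before each annotated start, read 5′ to 3′ on the gene's own strand in GRCh38.p14. The TNFRSF14 window is chr1:2556121-2556370 on the plus strand, and the TNFRSF19 windows are chr13:23570162-23570411 and chr13:23579110-23579359, both on the plus strand. The TNFRSF21 window is chr6:47309906-47310155 on the minus strand, and that of TNFSF9, the gene for a T-cell costimulatory ligand, is chr19:6530776-6531025 on the plus strand. Capitals mark matches to the NF-kB consensus on either strand.
TNFRSF14: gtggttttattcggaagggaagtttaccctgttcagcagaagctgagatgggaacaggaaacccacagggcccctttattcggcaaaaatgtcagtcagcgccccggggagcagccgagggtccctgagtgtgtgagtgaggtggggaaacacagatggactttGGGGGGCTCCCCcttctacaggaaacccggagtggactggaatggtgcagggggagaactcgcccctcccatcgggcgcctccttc
TNFRSF19, upstream start: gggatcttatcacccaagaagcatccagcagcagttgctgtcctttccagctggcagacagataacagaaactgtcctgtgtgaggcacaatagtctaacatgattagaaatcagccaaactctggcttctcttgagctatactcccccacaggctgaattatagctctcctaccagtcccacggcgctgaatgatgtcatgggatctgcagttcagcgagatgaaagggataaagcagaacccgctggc
TNFRSF19, downstream start: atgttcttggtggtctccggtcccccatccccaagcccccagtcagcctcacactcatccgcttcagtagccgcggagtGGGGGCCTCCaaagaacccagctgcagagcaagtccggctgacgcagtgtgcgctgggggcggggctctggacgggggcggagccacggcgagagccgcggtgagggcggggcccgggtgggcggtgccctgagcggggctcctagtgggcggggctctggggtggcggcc
TNFRSF21: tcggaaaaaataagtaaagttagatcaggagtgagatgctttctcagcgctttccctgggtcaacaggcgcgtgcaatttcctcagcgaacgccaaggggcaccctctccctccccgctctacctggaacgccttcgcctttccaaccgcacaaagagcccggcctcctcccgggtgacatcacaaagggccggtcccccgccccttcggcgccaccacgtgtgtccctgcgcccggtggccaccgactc
TNFSF9: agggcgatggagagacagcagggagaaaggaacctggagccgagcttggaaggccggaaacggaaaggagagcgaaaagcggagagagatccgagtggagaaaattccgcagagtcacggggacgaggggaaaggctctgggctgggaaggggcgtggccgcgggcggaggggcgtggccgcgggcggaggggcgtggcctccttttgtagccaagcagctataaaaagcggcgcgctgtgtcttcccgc

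Of the 37 member genes, 24 had at least 1 promoter in that table, 30 promoters in all. The NF-kB consensus was found in 9 of these 30 promoters (30.0%) and in 9.96% of the table's 35116 promoters of the same length. The AP-1 motif TGANTCA was in 4 of the 30 (13.3%) and in 6.57% of all, and was not in the promoters printed above. Some genes have several promoters in the table, and a match is a description of letters, not a bound site. Among the printed promoters, TNFRSF14 held 3 overlapping matches that began between 86 and 84 bases before the start, and the downstream TNFRSF19 promoter held 1 that began 171 bases before it. The TNFSF9 promoter held neither motif and was rich in GC (64.4%), with 23 CG dinucleotides.

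Each array carried 49395 probe sets, with a median log2 signal between 6.25 and 6.34. Arrays of 1 group correlated at 0.997 and arrays of different groups at 0.988 to 0.989. The table has no detection calls, so background was judged from 17 Tag control probe sets, designed against sequence foreign to the sample, whose highest mean log2 signal was 4.97. Of 22 endothelial markers, 10 lay at or below that level in both groups, CDH5 (VE-cadherin) among them. Of the 11 tested, 6 rose, ENG (0.81), FLI1 (0.80) and CLEC14A (0.59) past the study's threshold, and the list's summed linear signal was 2802 to 3181 with PBS and 3866 to 3905 with EPC-Exos. Of 10 leukocyte markers, 5 lay at or below Tag in both groups, PTPRC (CD45) among them, and 2 were tested. CD68 rose by 0.74, TYROBP was not called, and that list's sum was 491 to 525 with PBS and 643 to 713 with EPC-Exos. Of 10 fibroblast and mural markers, 6 were tested and 4 fell, DCN, ACTA2, PDGFRB and COL1A1. LUM was not tested, its mean over all arrays being too low. It went from 5.97 to 3.67, below the highest Tag signal, so the size of its fall was not measured. The fibroblast and mural list summed to 2858 to 3222 with PBS and to 1672 to 1867 with EPC-Exos. Of 8 epithelial markers, 3 were tested and 1, CLDN4, fell (-0.30). That list summed to 382 to 414 with PBS and to 362 to 382 with EPC-Exos. Called shares of the tested markers were 54.5% (endothelial), 50% (leukocyte), 66.7% (fibroblast and mural) and 33.3% (epithelial), against 49.1% of all tested genes. Each sum is weighted to its brightest genes. These were CD68 (PBS mean log2 signal 7.73) for leukocytes and COL1A1 (11.07) for fibroblast and mural cells, so a sum does not stand for its whole list. The part of these marker shifts in the results below was not tested. In RNA from whole cultures, fewer cells of a type and less RNA per cell cannot be told apart.

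Most member genes were below the signal filter or did not pass the test, and the called ones were TNFSF9, CD70, TNFRSF10B, TNFRSF10D, TNFRSF14, TNFRSF19 and TNFRSF21, lower, and TNFRSF10A and TNFRSF12A, higher. A gene was represented by its brightest probe set and tested where the mean log2 signal was at least 5.45, which 19 members passed, 5 ligands and 14 receptors. Of these, 7 fell, 2 rose and 10 did not pass an adjusted p under 0.05. The called share was 47.4%, against 49.1% of the 11715 genes tested, so it was close to the background and is no result about the superfamily. Higher calls were 21.7% and lower calls 27.3% of all genes. When each array was centred on the median of the tested genes, 54.9% of all calls were upward in place of 44.3%, and the members had 3 higher and 5 lower calls. The median log2 change was -0.12 over the 19 members and -0.011 over all tested genes. Only TNFRSF10D and TNFSF9 reached the study's own threshold (unadjusted p under 0.05 and at least a 1.5-fold difference), both downward. Of all tested genes 9.89% reached it, 3.94% upward and 5.96% downward. Groups did not overlap in 10 of the 19 members (52.6%), against 55.7% of all tested genes.

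**Figure D1:**
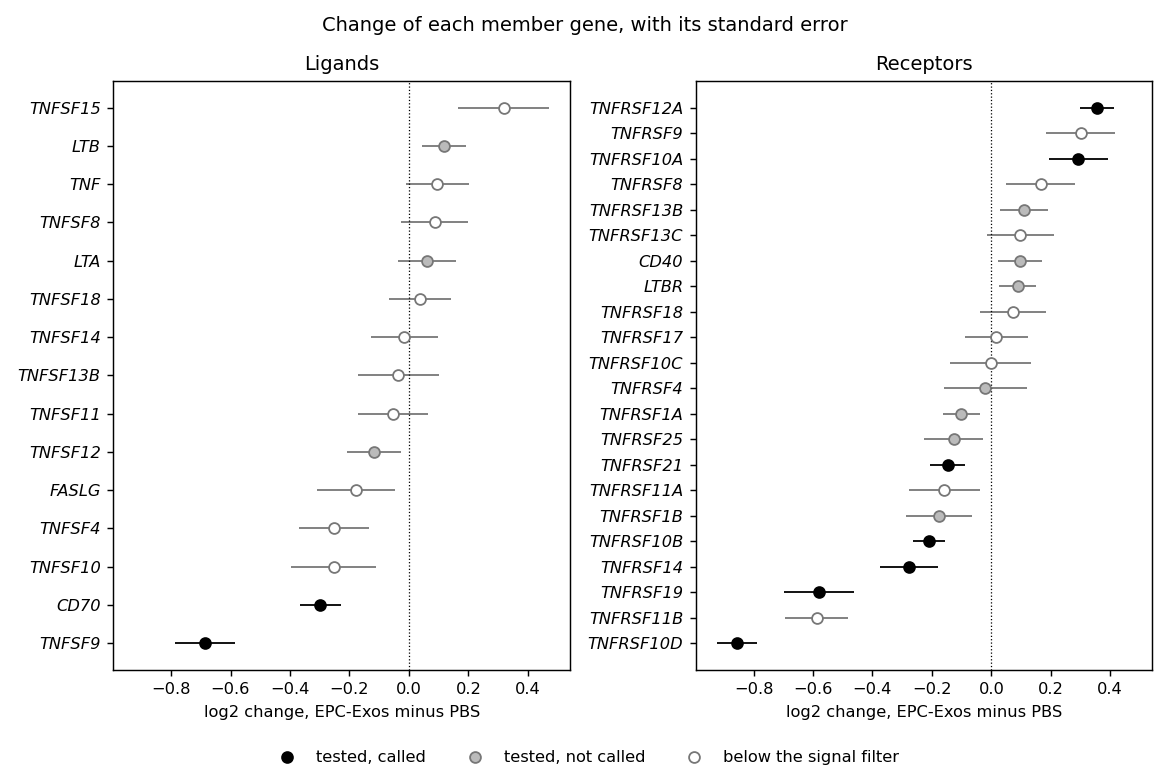
Log2 change (EPC-Exos minus PBS) of each of the 37 member genes, 15 ligands on the left and 22 receptors on the right; bars are limma's moderated standard errors, from the fit without the signal filter for open points. Black points were called, grey points were tested and not called, and open points lay below the signal filter; TNFRSF10D and TNFSF9 lie farthest to the left.

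Most ligands could not be told from background. Of the 15 ligand genes, 10 lay below the signal filter, and all 10 were at or below the highest Tag signal in both groups. TNF itself, the founding cytokine of the family, read 3.83, 3.73 and 3.82 on the PBS arrays and 3.98, 3.90 and 3.78 on the EPC-Exos arrays, log2 signals that overlap. TNFSF10, the TRAIL ligand, read 4.13, 4.16 and 4.59 with PBS and 3.82, 4.0 and 4.30 with EPC-Exos, and these too overlap. TNFSF15, an endothelial ligand known to restrain vessel growth, read 3.86, 3.68 and 3.95 with PBS and 3.91, 3.93 and 4.6 with EPC-Exos, so that 1 treated array stood above the other 5. TNFSF4 (OX40 ligand) and TNFSF18 (GITR ligand), which endothelium can show to T cells, were as dim: TNFSF4 averaged 4.5 in the PBS arrays and 4.24 in the treated ones, TNFSF18 4.17 and 4.21. A second TNFSF18 probe set, also below Tag, went from 4.34 to 3.88 and was called (adjusted p = 0.00874 over all probe sets). The remaining ligands at this level were FASLG, TNFSF8, TNFSF11, TNFSF13B and TNFSF14.

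The clearest change among ligands was in TNFSF9, whose product stimulates activated T cells through the receptor TNFRSF9. Its log2 signal was 7.21, 7.51 and 7.35 with PBS and 6.49, 6.76 and 6.75 with EPC-Exos. Every treated array was below every PBS array. The log2 change was -0.69 ± 0.10 (SE, n = 3 per group), a 1.61-fold lower signal (adjusted p = 2.75e-05, limma). Its second probe set read 7.79, 7.57 and 7.48 with PBS and 6.22, 6.36 and 6.43 with EPC-Exos, a change of -1.28 ± 0.10 (adjusted p = 2.11e-08 over all probe sets). The probe sets thus differed in size but not in direction.

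CD70, the ligand of the lymphocyte receptor CD27, also fell. It read 8.98, 9.0 and 9.02 with PBS and 8.73, 8.80 and 8.58 with EPC-Exos, without overlap. Its log2 change was -0.30 ± 0.070 (adjusted p = 0.00192), and a dimmer probe set changed by -0.60 ± 0.11 (adjusted p = 0.000409 over all probe sets). In the RefSeq gene order TNFSF9, CD70 and TNFSF14 follow one another on chromosome 19. TNFSF14 (LIGHT) was at background, with a mean log2 signal of 4.49 after EPC-Exos.

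The other 3 tested ligands did not pass. LTB, which forms a membrane heterotrimer with lymphotoxin alpha, changed by 0.12 ± 0.074, LTA by 0.060 ± 0.097 and TNFSF12 (TWEAK) by -0.12 ± 0.090, and in each the groups overlapped. The LTA value rests on a probe set of the kind that can bind related transcripts. Its other probe set lay below Tag in both groups.

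Receptors for TNF were not called. TNFRSF1A, the widely expressed death domain receptor for TNF, read 10.11, 10.28 and 10.29 with PBS and 10.08, 10.22 and 10.09 with EPC-Exos, with a log2 change of -0.10 ± 0.062 (adjusted p = 0.193). It passed only without PBS replicate 1, with a change of -0.16 (adjusted p = 0.0297). A dim TNFRSF1A probe set went the other way, from a mean of 5.16 to 5.61 (adjusted p = 0.0261 over all probe sets). TNFRSF1B, the second TNF receptor, which lacks a death domain, read 6.45, 6.66 and 6.79 with PBS and 6.30, 6.63 and 6.44 with EPC-Exos, overlapping, with a change of -0.18 ± 0.11 (adjusted p = 0.207). The call was gained with the mean of its probe sets, where the change was -0.22 (adjusted p = 0.0391).

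The receptors of TRAIL moved in both directions. TNFRSF10D, a decoy receptor with a truncated death domain, read 9.19, 9.34 and 9.34 with PBS and 8.43, 8.51 and 8.37 with EPC-Exos. The groups lay far apart relative to their spread, and the log2 change of -0.86 ± 0.068 (adjusted p = 2.74e-08) was a 1.81-fold fall. With probe sets averaged per gene it was -0.69, and that of TNFSF9 -0.98. A second probe set fell by 0.52 on the log2 scale (adjusted p = 0.00173 over all probe sets). TNFRSF10B, the death receptor DR5, read 10.52, 10.57 and 10.61 with PBS and 10.32, 10.44 and 10.31 with EPC-Exos, without overlap, a change of -0.21 ± 0.053 (adjusted p = 0.00361). Its other probe sets changed by 0.15 and -0.040 and were not called, and the brightest one is of the kind that can bind related transcripts, so the fall rests on that probe set.

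TNFRSF10A, the death receptor DR4, rose instead. It read 6.52, 6.46 and 6.39 with PBS and 6.71, 6.61 and 6.93 with EPC-Exos, without overlap, a change of 0.29 ± 0.10 (adjusted p = 0.0226). The call was lost without PBS replicate 3 (adjusted p = 0.0723) and without EPC-Exos replicate 3 (adjusted p = 0.134), whose value was the highest. TNFRSF10C, a decoy receptor held by a lipid anchor, had mean log2 signals of 5.02 in both groups and lay below the filter. These 4 receptor genes are consecutive in the RefSeq gene order on chromosome 8.

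TNFRSF11B, osteoprotegerin, is a secreted decoy for TNFSF11 (RANKL) and TRAIL. It read 4.51, 4.46 and 4.37 with PBS and 3.79, 3.95 and 3.83 with EPC-Exos, without overlap, and was called in the fit without the signal filter (change -0.59 ± 0.11, adjusted p = 0.000243). That fit called 32.3% of 18132 genes. Both group means lay below the highest Tag signal, so no level or fold can be given. It was the only called gene among the 18 members below the filter. The others changed by -0.25 to 0.32 on the log2 scale, and 16 of the 18 lay at or below Tag in both groups.

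**Figure D2:**
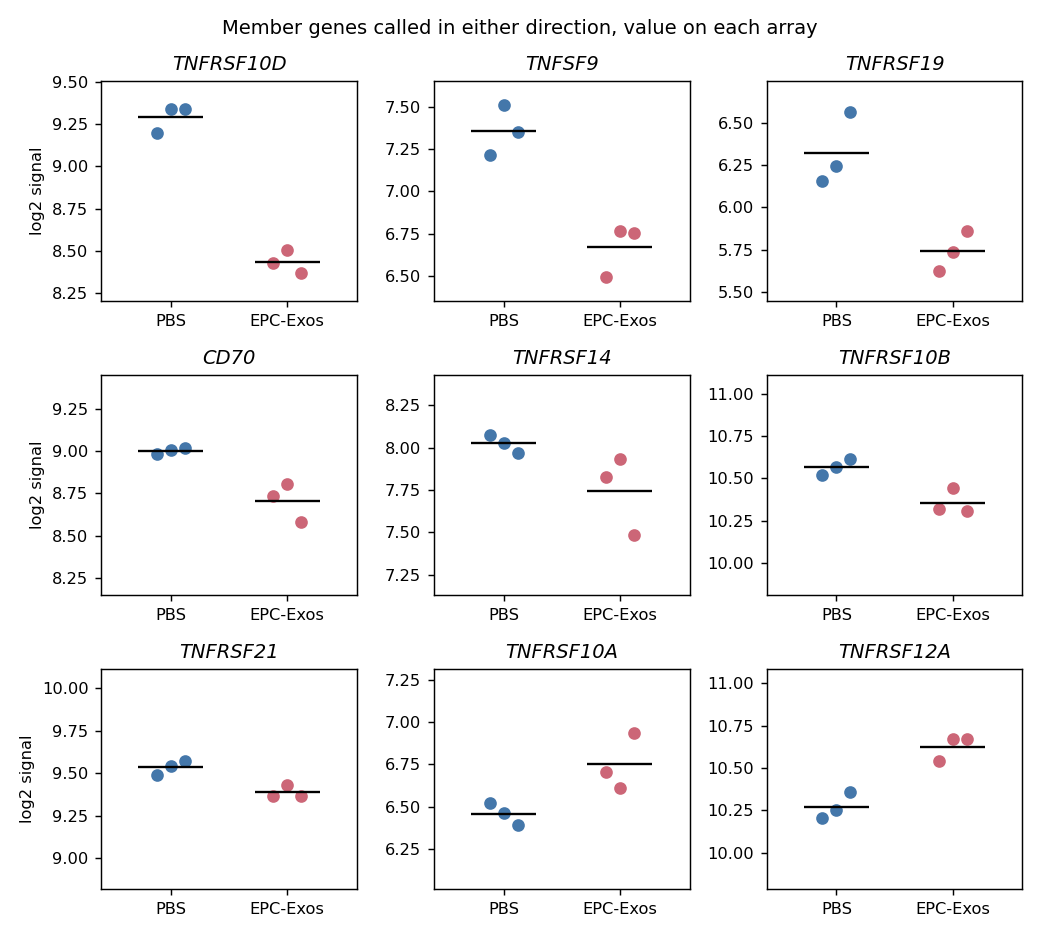
Log2 signal on each of the 6 arrays for the 9 called member genes, with PBS in blue, EPC-Exos in red and the group mean as a line; every panel spans the same log2 range around its own centre. In each gene the 3 treated arrays lie all above or all below the 3 PBS arrays, and the distance is widest for TNFRSF10D.

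Among the other death domain receptors, TNFRSF21 (DR6) read 9.49, 9.54 and 9.57 with PBS and 9.37, 9.43 and 9.36 with EPC-Exos. The change was small, -0.15 ± 0.058 (adjusted p = 0.0443), and none of its 3 probe sets was called over all probe sets. The call was lost when any array but PBS replicate 1 was left out, and under 5 other settings, among them centring on the median of the tested genes (adjusted p = 0.134). TNFRSF25 (DR3), the receptor of TNFSF15, changed by -0.13 ± 0.10 and was not called.

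Of the receptors that bind TRAF adaptors, TNFRSF12A rose most clearly. Its product is Fn14, the injury-induced receptor of TWEAK. It read 10.20, 10.25 and 10.36 with PBS and 10.54, 10.67 and 10.67 with EPC-Exos, without overlap. The change of 0.35 ± 0.057 (adjusted p = 6.49e-05) was a 1.28-fold rise, and it has 1 probe set. Its ligand gene TNFSF12 did not pass, as given above.

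TNFRSF19 (TROY), an orphan receptor known from Wnt-responsive tissues, fell. It read 6.16, 6.24 and 6.56 with PBS and 5.63, 5.74 and 5.86 with EPC-Exos, without overlap, a change of -0.58 ± 0.12 (adjusted p = 0.000579). Its brightest probe set can bind related transcripts. Without probe sets of that kind the change was -0.11 and was not called (adjusted p = 0.422).

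TNFRSF14 (HVEM), the receptor of LIGHT, read 8.08, 8.03 and 7.97 with PBS and 7.83, 7.93 and 7.48 with EPC-Exos. The groups did not overlap, the 1 low treated array widened the spread, and the change was -0.28 ± 0.099 (adjusted p = 0.0277). The call was lost without EPC-Exos replicate 3 or PBS replicate 1 (adjusted p = 0.201 and 0.0654) and with either way of centring the arrays (0.0563 and 0.0767). All 7 of its probe sets changed downward, by 0.028 to 0.64 on the log2 scale in size, and 3 were called. All 3 are of the kind that can bind related transcripts, and the only probe set of another kind was below the filter and not called.

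CD40 and LTBR, which feed the noncanonical NF-kB pathway, were not called. CD40 read 8.71, 8.89 and 8.95 with PBS and 8.99, 8.88 and 8.97 with EPC-Exos, overlapping, with a change of 0.096 ± 0.073 (adjusted p = 0.298). LTBR read 9.87, 9.99 and 10.10 with PBS and 10.08, 10.12 and 10.03 with EPC-Exos, a change of 0.088 ± 0.062 (adjusted p = 0.259). LTBR was called with averaged probe sets (0.14, adjusted p = 0.0471) and with arrays centred on the median of the tested genes (0.14, adjusted p = 0.0451). A second LTBR probe set changed by 0.18 ± 0.067 and was called over all probe sets (adjusted p = 0.0458). TNFRSF13B and TNFRSF4, receptors known from lymphocytes, changed by 0.11 ± 0.080 and -0.020 ± 0.14 and were not called. TNFRSF9, the receptor of the TNFSF9 product, had mean log2 signals of 4.08 and 4.38, both below Tag. The other receptors below the filter were TNFRSF8, TNFRSF11A, TNFRSF13C, TNFRSF17 and TNFRSF18.

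Of the 78 probe sets, 17 were called when each was tested alone, 13 lower and 4 higher. This was 21.8%, against 28.4% of all 49293 non-control probe sets. Of the 9 called genes, TNFSF9, CD70, TNFRSF10D and TNFRSF14 had a further called probe set in the same direction. TNFRSF10A and TNFRSF12A have only 1 probe set. In TNFRSF10B, TNFRSF19 and TNFRSF21 no other probe set was called.

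**Figure D3:**
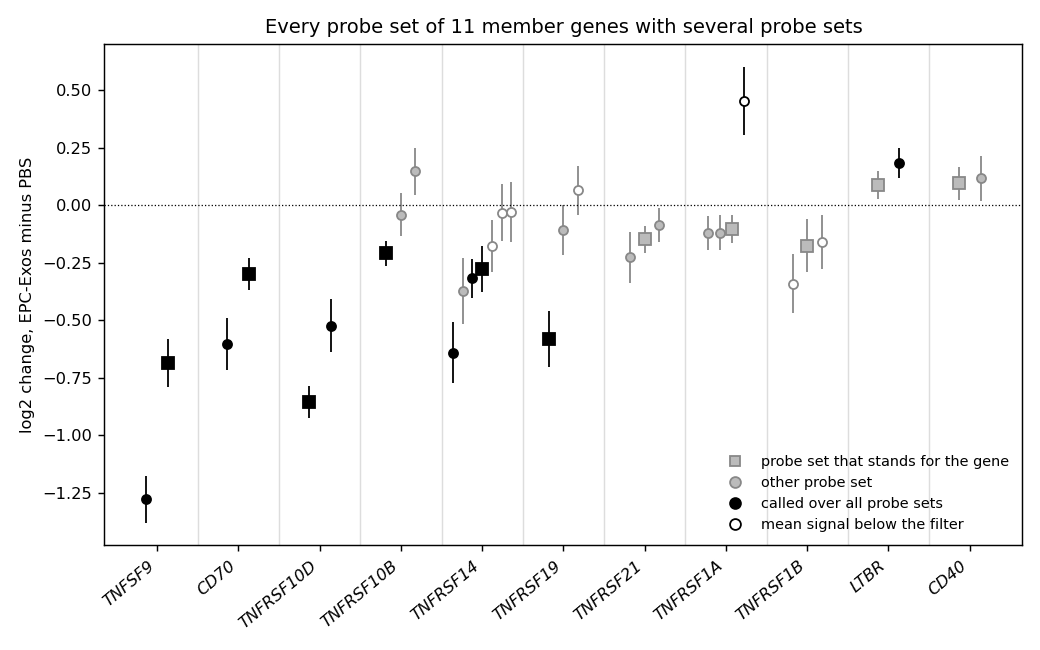
Log2 change (EPC-Exos minus PBS) with standard error for every probe set of the member genes shown, each of which has several; squares stand for the gene, black marks were called over all probe sets and open marks lay below the signal filter. The probe sets of TNFSF9, CD70 and TNFRSF10D are all black and below 0, while those of TNFRSF10B, TNFRSF19 and TNFRSF1A lie on both sides of 0.

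Ligands and receptors were also set side by side in 26 textbook pairs, some of which share a member. The pairs are a selection, and LTA was not set beside TNFRSF1B, though both were tested. In 3 of the 26 pairs both partners were tested, LTA with TNFRSF1A, LTB with LTBR and TNFSF12 with TNFRSF12A. In 12 pairs the receptor alone was tested, in 2 the ligand alone and in 9 neither. The pairs with the ligand alone were TNFSF9 with TNFRSF9 and CD70 with CD27.

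Some superfamily members have symbols that the rule does not reach, and both FAS and EDA2R fell. FAS, the death receptor of FASLG, read 7.71, 7.64 and 7.59 with PBS and 6.67, 6.91 and 6.61 with EPC-Exos, a change of -0.92 ± 0.093 (adjusted p = 4.33e-07). EDA2R, a receptor of the ectodysplasin family, read 6.65, 6.62 and 6.85 with PBS and 4.87, 4.97 and 5.13 with EPC-Exos, a change of -1.72 ± 0.11 (adjusted p = 2.08e-09). In both genes every treated array lay below every PBS array, and in EDA2R the treated arrays lay at about the highest Tag signal, so the full size of its fall was not measured. RELT, an orphan receptor, rose by 0.25 ± 0.093 (adjusted p = 0.0346) with overlapping groups, and the call was lost without any 1 of 4 arrays. NGFR, the low-affinity neurotrophin receptor, changed by 0.10 ± 0.10 and was not called. So 3 of 4 tested genes were called, 1 higher and 2 lower. This was 75%, against 49.1% of all tested genes, of which 21.7% were higher and 27.3% lower. With 4 genes this share is no result about the list. The probe sets of FAS and EDA2R are of the kind that can bind related transcripts. Without probe sets of that kind the list had 2 calls, FAS and RELT, and EDA2R was not tested. EDA, EDAR and CD27 lay below the filter, and CD40LG was not analysed here.

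Adaptors and kinases below the receptors were mixed. Of 26 tested genes, 4 rose, 5 fell and 17 did not pass, 34.6% called against 49.1% of all tested genes, with a median log2 change of 0.038. BIRC2 (cIAP1), a ubiquitin ligase that binds TRAF adaptors at these receptors, rose by 0.86 ± 0.051 (adjusted p = 8.21e-10). MAP3K14 (NIK), the kinase that starts noncanonical NF-kB signalling and that cIAP and TRAF proteins mark for destruction, had a change of -0.70 ± 0.090 (adjusted p = 6.59e-06). TRAF5 rose (0.53 ± 0.088). Of the linear ubiquitin ligase, RBCK1 (HOIL-1) fell (-0.39 ± 0.081) and the catalytic subunit RNF31 (HOIP) rose (0.35 ± 0.083).

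Death effectors and their inhibitors had 5 of 11 tested genes higher and 6 not called, with a median change of 0.13. This was 45.5% called, against 49.1% of all tested genes, of which 21.7% were higher. MLKL, the executioner of necroptosis, rose by 0.74 ± 0.072 (adjusted p = 2.99e-07). CFLAR (c-FLIP), which blocks caspase-8 at death receptors, rose by 0.43 ± 0.081, and BID, which links death receptors to mitochondria, by 0.42 ± 0.067. DAP3 rose by 0.35 ± 0.045 and the adaptor CRADD by 0.25 ± 0.063. With probe sets averaged per gene, CFLAR (0.18, adjusted p = 0.0503) and CRADD (0.11, adjusted p = 0.245) lost their calls, and CRADD also without probe sets that can bind related transcripts (adjusted p = 0.0963).

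Of 10 tested genes for shedding of ligands and receptors, 5 were called, each lower, and the median change was -0.19. The called share of 50% was close to the 49.1% of all tested genes, of which 27.3% were lower. TIMP3, an inhibitor of the sheddase ADAM17, fell most (-1.07 ± 0.084, adjusted p = 2.22e-08). RHBDF1 (iRhom1) and FRMD8, which help ADAM17 reach the cell surface, changed by -0.48 ± 0.073 and -0.25 ± 0.086. ADAM17 itself changed by -0.22 ± 0.062 (adjusted p = 0.00831) and the intramembrane protease SPPL2A by -0.29 ± 0.051. The FRMD8 call was lost in 8 of 20 alternatives, among them without PBS replicate 2 or 3 or EPC-Exos replicate 1 (adjusted p = 0.0848, 0.0545 and 0.152). The probe sets of FRMD8 and TIMP3 are of the kind that can bind related transcripts. Without such probe sets FRMD8 changed by -0.065 (adjusted p = 0.646). With averaged probe sets FRMD8 (-0.11, adjusted p = 0.228) and ADAM17 (-0.18, adjusted p = 0.0572) were not called. TIMP3 kept its call throughout, with a smallest change of -0.44.

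Most tested genes known to be induced by TNF in endothelium rose, while TNF itself read below the highest Tag signal in both groups. Of 25 tested genes 15 rose, 4 fell and 6, CCL5 and CX3CL1 among them, did not pass. This was 76% called, against 49.1% of all tested genes, with a median change of 0.47. The list was chosen with earlier results of these data known, so this difference is a description and no test. A further 8 of the 33 genes analysed lay below the signal filter, 5 of them at or below Tag in both groups. VCAM1, CCL2 and CXCL10 were among those 5, and SELE was also below the filter. These genes too are named after their values were seen. Among tested genes with both groups above Tag, the neutrophil chemokines CXCL2 (2.62), CXCL8 (2.56) and CXCL1 (2.49) and TNFAIP3 (2.59), the A20 inhibitor of NF-kB, changed most, as log2 differences. Their probe sets are of the kind that can bind related transcripts. All kept their calls under every alternative run, with lowest changes of 2.02, 2.45, 1.75 and 2.17 in the same order. CXCL3 went from 4.79, below the highest Tag signal, to 8.46, so the size of its rise was not measured. The same limit holds for PTGS2 (cyclooxygenase 2), below the signal filter, which went from 3.68 to 6.43 and is named after its values were seen. These genes also answer other stimuli, and no value here bears on which stimulus acted. Among those that fell were the urokinase gene PLAU (-1.43 ± 0.062) and TNFAIP2 (-0.21 ± 0.081), named after their values were seen.

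**Figure D4:**
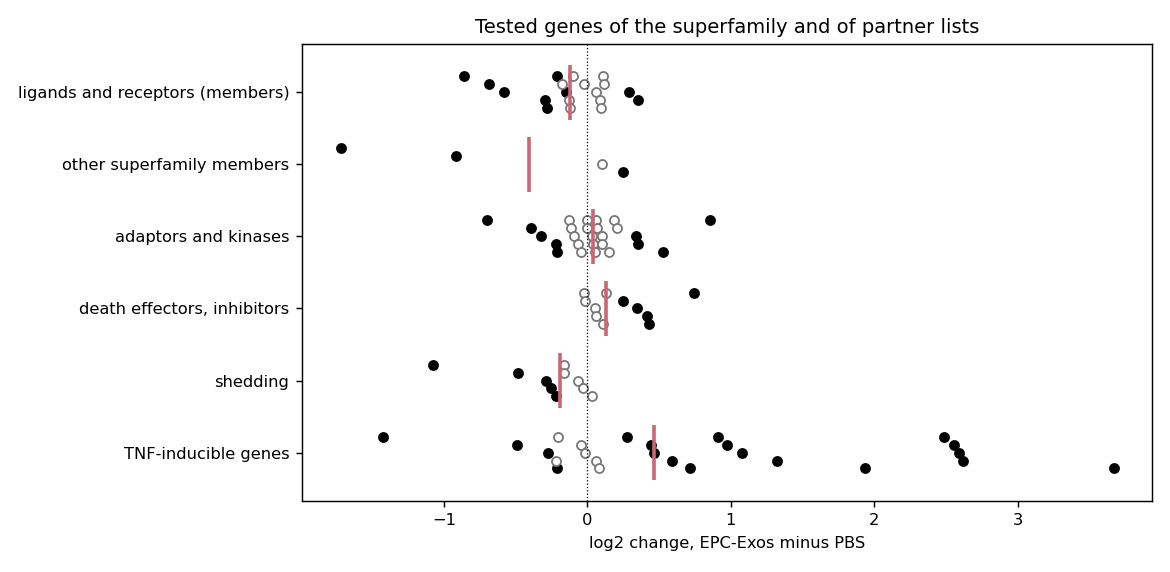
Log2 change (EPC-Exos minus PBS) of the tested genes among the superfamily members and in 5 partner lists; black points were called, open points were not, and red lines are medians. The superfamily members gather near 0 with a median of -0.12, whereas the TNF-inducible genes spread widely, with a median of 0.47. All lists were chosen with earlier results of these data known. The point farthest right is CXCL3, whose PBS signal was below the highest Tag signal.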

How the data were processed

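The deposited table held the authors' log2 signals for 3 PBS and 3 EPC-Exos arrays; per the submitters' processing notes MAS5 was used, without a stated role, and no source used here gives their scaling or centring. The values were used as deposited. Probe sets were named from the platform annotation: 44988 had 1 symbol, 1832 several and 2473 none, and 102 were controls. A gene was represented by the probe set with the highest mean over all arrays and tested where that mean reached the 40th percentile of non-control probe sets (log2 signal 5.45). Groups were compared with limma 3.58.1 (lmFit, then eBayes with a variance trend) in R 4.3.3, and p-values were Benjamini-Hochberg adjusted over all 11715 tested genes; a call is an adjusted p under 0.05. Adjusted p-values given over all probe sets come from the same limma fit on 49293 probe sets. ± is SD for group means and the moderated SE for changes. The test was run on simulated data with independent noise and far fewer changed genes than were called here. That run therefore does not show how the test behaves in these data. Array values are given for called members with a fold of at least 1.2 and for TNF, TNFRSF1A, TNFRSF1B, LTBR, CD40, TNFSF10, TNFRSF10B, TNFRSF21, TNFRSF11B and TNFSF15 whatever they show; of each partner list, up to 5 called genes are named by size of change. The members and lists were chosen with earlier results of these data known, and the promoter motifs after the data were seen. Alternatives covered centring, the offset, the filter, the choice of probe set, the test and leaving out each array.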

Additional observations from a re-analysis of the deposited data

How the results depend on the processing

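Called member genes kept their direction under every alternative run: of 367 results for the tested members, 333 kept direction and call, 25 lost the call, 4 gained it and 5, all uncalled, changed sign. These were TNFRSF1A with averaged probe sets (0.029) and TNFRSF4 with arrays centred on their median (0.0047), on the median of the tested genes (0.033), without PBS replicate 2 (0.16) and without EPC-Exos replicate 3 (0.051); leaving out 1 array gave TNFRSF4 changes of -0.18 to 0.16. Of 475 results for 24 partner genes, 27 lost the call. Leaving out 1 array gave 1 to 2 higher members, with 1 without PBS replicate 3 and 1 without EPC-Exos replicate 3, and 5 to 7 lower. Higher members numbered 1 with the filter at the 60th percentile. Tested against a fold of 1.2, 0 members were higher (limma; 0 at an unadjusted p under 0.05 in that test and 2 in the main limma test) and 3 lower, member probe sets 4, adaptors 3, death effectors 1 and shedding genes 2, while 15.7% of all tested genes were called. Without probe sets that can bind related transcripts, 4 members were lower and 11 member probe sets were called. Members past the study's threshold numbered 1 with an offset of 64 and 1 with the 60th percentile, 3 with cyclic loess, 3 without the filter and 2 to 3 when 1 array was left out, with 3 without PBS replicate 1, PBS replicate 2 or EPC-Exos replicate 3. With probe sets averaged per gene, death effectors had 3 calls and shedding genes 3. Centring on the median of the tested genes, chosen after seeing the data, gave 8 death effector calls. The causes of these shifts were not tested. Without the signal filter 24.3% of the 37 members and 32.3% of all genes were called. The labels do not say whether replicate numbers pair the arrays, and the main fit left them unpaired. Same-number correlations of deviations were 0.20, 0.18 and 0.077, and different-number ones were -0.19 to 0.022. Each array correlated best with its own number. With the replicate block 2 members were higher and 7 lower, and 52.2% of all genes were called. Precision is limited by 3 arrays a group, and for most ligands by signal near background.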
